A study of Arundo donax with 9 samples.

Results

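Thioredoxins, peroxiredoxins, glutaredoxins and methionine sulfoxide reductases were followed in leaves of giant reed (Arundo donax) irrigated with salt water. The members were taken by annotation: every unigene whose best Swiss-Prot description names one of these 4 protein families, apart from unigenes whose nucleotide database description names a human sequence. Of the 255855 unigenes listed in any library, 448 carried such a description, 8 were left out for the human description and 440 remained, under 77 different protein names. A unigene is the longest transcript of one cluster of the transcriptome assembly, and a protein name is the Swiss-Prot description that one or more unigenes share.

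These proteins pass electrons through pairs of cysteines. In the chloroplast, photosystem I reduces ferredoxin, ferredoxin-thioredoxin reductase moves those electrons to thioredoxins, and the thioredoxins reduce disulfides in target enzymes such as those of the Calvin cycle; in the cytosol and mitochondria NADPH-dependent thioredoxin reductases reduce the thioredoxins h and o, and glutaredoxins draw on glutathione. Peroxiredoxins reduce peroxides and are regenerated by thioredoxins or glutaredoxins. Methionine sulfoxide reductases repair oxidized methionine, the A type acting on one stereoisomer of the sulfoxide and the B type on the other.

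All plants were of one clone, G2, grown from rhizomes in pots, so that the results hold for a single genotype. The control group, G2-CK, received water without NaCl, the severe group, G2-S3, received 250 mM NaCl and the extreme group, G2-S4, received 420 mM NaCl, once a week from August to November, when a young fully expanded leaf was taken. Each group had 3 libraries, called biological replicates by the study, which was laid out in randomized blocks, and the RNA was whole-leaf RNA.

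The number of fragments assigned to unigenes, fitted from the deposited values, was close to even, from 23.0 to 25.7 M per library. Levels are given as FPKM, the fragments per kilobase of transcript and per M fragments, and each deposited list ends just above 0.3 FPKM, so that a unigene absent from a list was at or below that level, not at a known 0. Reads on unigenes whose best protein hit lies outside the green plants made up 0.00330% to 0.00494% of the listed reads in the G2-CK and G2-S3 libraries and 0.0188% to 0.0422% in the G2-S4 libraries. Only 1 member, a Peroxiredoxin-5 unigene with an oomycete best hit, had no green plant among its hits, and it was listed in 1 library and not tested. Summed FPKM of the leaf mesophyll markers (Rubisco small subunit, chlorophyll a-b binding proteins and oxygen-evolving enhancer protein 1; 71 unigenes under 23 names) lay between 12680 and 15417 in G2-CK, between 10505 and 11754 in G2-S3 and between 4577 and 5108 in G2-S4, so the leaf label fits its defining markers in every library.

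By sequence annotation, 182 members had a Pfam thioredoxin domain, 79 a glutaredoxin domain, 109 an AhpC/TSA or redoxin domain and 36 a methionine sulfoxide reductase domain, while 58 had no Pfam entry. For 370 members the best protein hit came from Setaria, Sorghum, Zea or Oryza, all grasses. The members had a median length of 1139 bases against 831 bases over all unigenes, and 65.5% of them were listed in all 9 libraries against 37.1% of all unigenes. Most names were carried by several unigenes, up to 18 for the chloroplast thioredoxin-like protein AAED1, and only 7 names by a single one. Reads of near-identical copies may be split between unigenes, so changes are described mainly by protein name, with the counts summed over all unigenes of that name.

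The summed FPKM of all members was 9513 ± 193 in G2-CK, 9464 ± 255 in G2-S3 and 8637 ± 117 in G2-S4 (SD, n = 3), which was 0.691% to 0.804% of all listed FPKM. FPKM carry no correction for library composition, whereas the fold changes given below do, through TMM factors. Those factors were 1.03 to 1.06 in G2-CK and 0.940 to 0.959 in G2-S4. A lower FPKM sum in G2-S4 therefore need not be a fall on the scale of the fold changes. The pool was uneven: 10 names held 55.8% of it and 25 names held 80.0%. Thioredoxin M-type, a chloroplast thioredoxin, alone held 15.4%. Plastid thioredoxins formed the largest role group in G2-CK with 35.9% of the pool, followed by thioredoxins h and o with 16.6%, peroxiredoxins with 14.96% and methionine sulfoxide reductases with 10.03%. In G2-S4 the plastid thioredoxins held 27.1%, thioredoxins h and o 24.7%, methionine sulfoxide reductases 12.2%, glutaredoxins 11.8% and peroxiredoxins 9.64%. In bulk leaf RNA, fewer cells of a type and less RNA per cell cannot be told apart.

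The largest shifts of summed group levels were in G2-S4. Abundant names weigh most in such sums. From G2-CK to G2-S4, mean FPKM went from 637 to 227 for Peroxiredoxin Q and from 516 to 278 for the peroxiredoxin BAS1. For Thioredoxin M-type it went from 1684 to 865. Peroxiredoxins summed to 1395, 1488 and 1389 FPKM in the G2-CK libraries, to 1234, 1132 and 1131 in G2-S3 and to 848, 797 and 853 in G2-S4, so that no group overlapped another. Plastid thioredoxins summed to 3223, 3561 and 3461 FPKM in G2-CK and 3540, 3494 and 3530 in G2-S3, which overlapped, and to less, 2453, 2283 and 2283, in G2-S4. Thioredoxins h and o went the other way, with 1728, 1577 and 1420 FPKM in G2-CK, 1801, 1831 and 1346 in G2-S3 and 2084, 2122 and 2197 in G2-S4, the third G2-S3 library being the lowest of all 9. These sums carry no test, since FPKM values were summed over members chosen with earlier results in view.

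**Figure D1:**
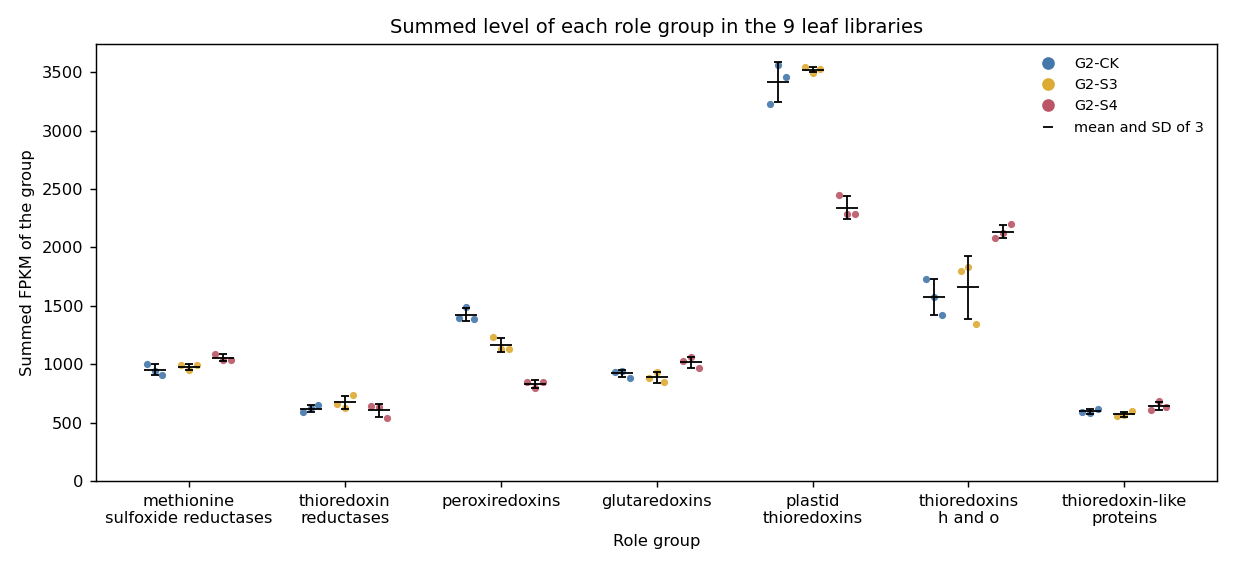
Summed FPKM (y axis, from 0) of the 7 role groups (x axis) in each of the 9 libraries; coloured points are libraries, black marks the mean and SD of 3. Peroxiredoxins and plastid thioredoxins are lowest in G2-S4 (848, 797 and 853, and 2453, 2283 and 2283 FPKM), while thioredoxins h and o are highest there (2084, 2122 and 2197 FPKM).

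Of the 440 members, 365 had enough reads to be tested, and 75 stayed below the filter on low counts. In the following a change is called at an adjusted p under 0.05 from edgeR's quasi-likelihood test, with Benjamini-Hochberg adjustment over all unigenes or all protein names tested. In G2-S3 vs G2-CK, 27 members were higher, 7.40% of those tested where 3.41% of all tested unigenes were higher, and 2 members were lower, 0.548% against 2.33%. In G2-S4 vs G2-CK, 72 members were higher, 19.7% against 14.2%, and 71 were lower, 19.5% against 13.8%. In G2-S4 vs G2-S3, 24 members were higher, 6.58% against 7.25%, and 54 were lower, 14.8% against 6.88%.

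By protein name, 74 of 77 names were tested. In G2-S3 vs G2-CK 13 names were higher, 17.6% against 10.6% of all names tested, and 5 were lower, 6.76% against 5.63%. In G2-S4 vs G2-CK 27 names were higher, 36.5% against 30.8%, and 22 were lower, 29.7% against 20.2%. In G2-S4 vs G2-S3 17 names were higher, 23.0% against 19.6%, and 19 were lower, 25.7% against 14.0%. Thioredoxin-like 1-1 and CDSP32 were higher in G2-S3 vs G2-CK and lower in G2-S4 vs G2-S3, without a call in the remaining comparison. In all, 23 names were called in none of the 3 comparisons.

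The median log2 fold change of the members was 0.05, −0.10 and −0.07 in the 3 comparisons, in the order above, beside 0.00, −0.03 and −0.02 over all unigenes tested. Scaling moved these splits. Without TMM factors, which correct for differences in library composition, the median of all unigenes was −0.17 in G2-S4 vs G2-CK. The members then split into 51 higher and 92 lower instead of 72 and 71. Calls over all 127353 unigenes tested shifted too, from 18130 higher and 17575 lower to 14256 and 22893. By protein name, the members were then 24 higher and 24 lower in that comparison, beside 2692 and 3207 of all 12124 names. In G2-S4 vs G2-S3, 11 member names were higher and 22 lower, beside 1670 and 2229 of all names.

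**Figure D2:**
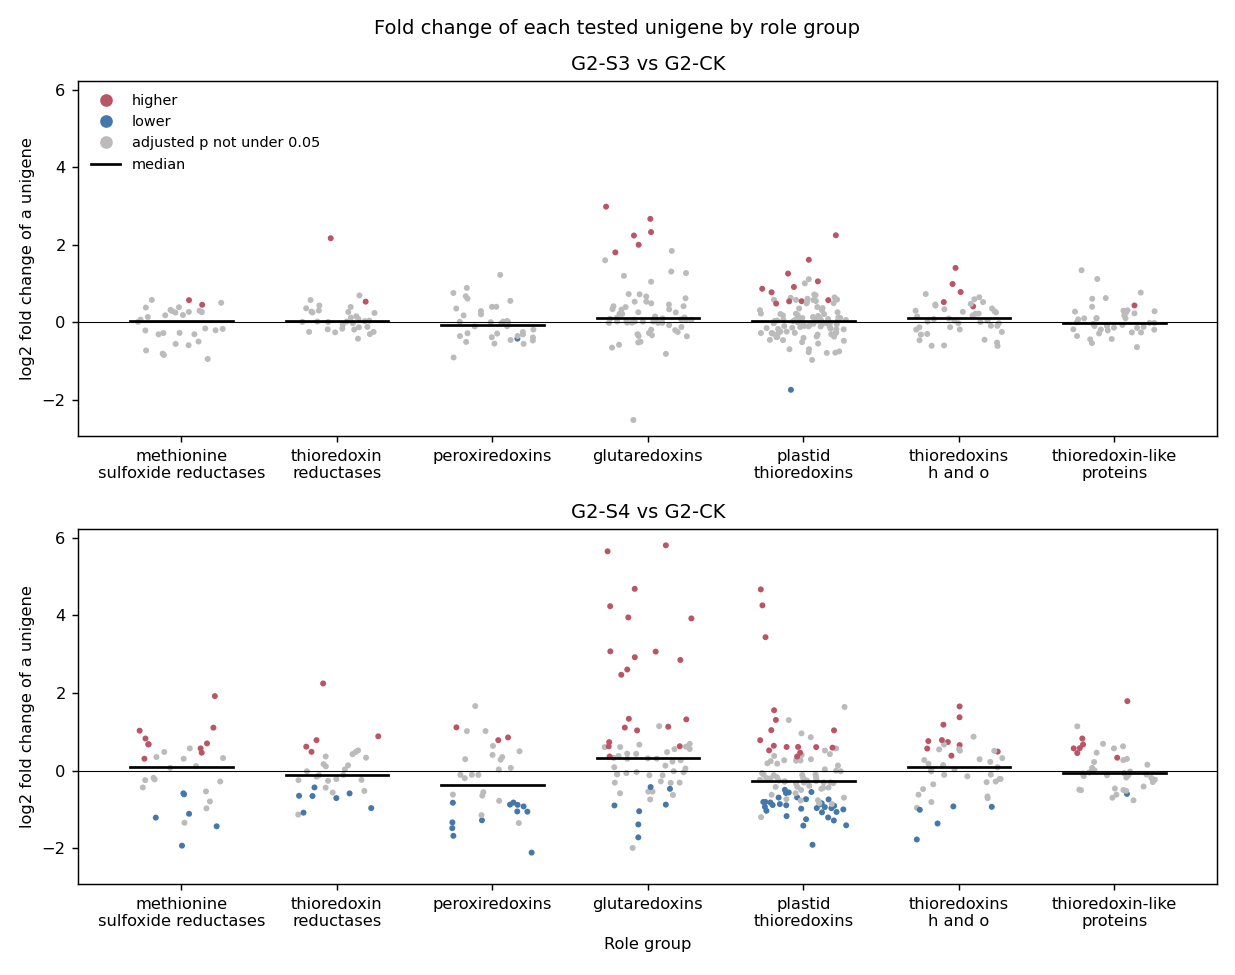
log2 fold change (y axis) of each of the 365 tested unigenes by role group (x axis), for G2-S3 vs G2-CK (upper panel) and G2-S4 vs G2-CK (lower panel); red points were higher and blue points lower at an adjusted p under 0.05, grey points were not called, and black lines are medians. In G2-S4 vs G2-CK the calls among plastid thioredoxins are mostly lower (33 lower, 16 higher, of 110 tested) and those among glutaredoxins mostly higher (21 higher, 7 lower, of 67 tested). Of all unigenes tested, 14.2% were higher and 13.8% lower.

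The enzymes that reduce thioredoxins took up 6 names and 41 unigenes. Ferredoxin-thioredoxin reductase, the iron-sulfur enzyme that links thioredoxins to light, has a catalytic and a variable chain. The catalytic chain was listed at 323, 362 and 379 FPKM in G2-CK, 386, 346 and 443 in G2-S3 and 398, 376 and 295 in G2-S4. Those groups overlapped and no comparison was called, with a log2 fold change of 0.18 ± 0.12 (SE) in G2-S4 vs G2-CK. The variable chain was at 64.3, 79.3 and 80.8 FPKM in G2-CK, 98.2, 105 and 101 in G2-S3 and 110, 101 and 92.8 in G2-S4. It rose 1.37-fold in G2-S4 vs G2-CK (adjusted p = 0.0060, edgeR), with both treated groups above every control library, and its rise in G2-S3 (adjusted p = 0.033) was lost when any of the control libraries, replicate 1 or 2 of G2-S3 or replicate 2 of G2-S4 was left out (adjusted p 0.052 to 0.10).

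NTRC, a chloroplast enzyme that joins a thioredoxin reductase to a thioredoxin and uses NADPH instead of ferredoxin, went down. Its summed level was 111, 120 and 117 FPKM in G2-CK, 109, 99.1 and 117 in G2-S3 and 78.7, 76.3 and 69.7 in G2-S4. Every G2-S4 library lay below all others, and the log2 fold change in G2-S4 vs G2-CK was −0.50 ± 0.07 (adjusted p = 0.00056), with 5 of 11 tested unigenes lower and none higher. The name NADPH-dependent thioredoxin reductase 3, given to the Arabidopsis enzyme of the same kind, was also lower in G2-S4, 1.69-fold, but was chosen for mention after its values were seen. The NTRA and NTRB names, which stand for cytosolic and mitochondrial reductases, were called in no comparison.

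Among plastid thioredoxins, the most abundant member of all fell by nearly the same factor against both other groups. Thioredoxin M-type, of the m class that reduces among others NADP-malate dehydrogenase, was at 1615, 1759 and 1677 FPKM in G2-CK, 1682, 1736 and 1684 in G2-S3 and 866, 830 and 901 in G2-S4. The G2-CK and G2-S3 libraries overlapped and all 3 G2-S4 libraries lay far below them. Its level was 1.78-fold lower in G2-S4 than in G2-CK (adjusted p = 3.4e-05) and 1.88-fold lower than in G2-S3 (adjusted p = 6.8e-05). Its most abundant unigenes, Cluster-14027.158033 and Cluster-14027.164987, moved together, with log2 fold changes of −0.75 ± 0.09 and −0.81 ± 0.09 in G2-S4 vs G2-CK.

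Among the other m names, Thioredoxin M1, outside the naming rule, stood at 72.3, 103 and 91.1 FPKM in G2-CK. It was called in no comparison. M2, M3 and M5 were of low level, with M2 higher and M3 and M5 lower in G2-S4. Thioredoxin M2 stood at 1.87, 1.75 and 1.62 FPKM in G2-CK, 2.84, 2.68 and 3.72 in G2-S3 and 10.4, 13.2 and 13.1 in G2-S4, a 6.18-fold rise in G2-S4 vs G2-CK (adjusted p = 2.6e-05). The groups did not overlap, and the G2-S3 rise (adjusted p = 0.028) was lost without replicate 2 or 3 of G2-CK or replicate 1 or 2 of G2-S3. With unlisted copies set to the listing limit instead of 0, the G2-S3 rise was not called either (adjusted p = 0.0503, edgeR). The G2-S4 log2 fold change was then 2.33 ± 0.18 instead of 2.63. Most of the G2-S4 rise came from Cluster-14027.222410, picked out after its values were seen, which was listed in no control library and stood at 5.44, 8.34 and 8.42 FPKM in G2-S4. Thioredoxin M3 and Thioredoxin M5 were lower in G2-S4, with log2 fold changes of −0.87 ± 0.13 and −0.67 ± 0.15, although the M5 levels of the 2 groups overlapped (6.73 to 7.93 and 4.87 to 7.02 FPKM). Their G2-S3 calls (adjusted p = 0.043 and 0.042) were lost when almost any library was left out (adjusted p up to 0.13).

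Thioredoxin F, the class known to activate fructose-1,6-bisphosphatase, rose. It was listed at 67.7, 83.5 and 71.5 FPKM in G2-CK, 91.5, 106 and 65.7 in G2-S3 and 117, 105 and 118 in G2-S4. All G2-S4 libraries were above all controls, while G2-S3 overlapped both, and the rise in G2-S4 vs G2-CK was 1.90-fold (adjusted p = 0.0024). Its longest unigene, Cluster-14027.142535, went from 14.93, 19.05 and 14.95 FPKM in G2-CK to 40.4, 34.5 and 34.9 in G2-S4 and had a log2 fold change of 1.30 ± 0.20. Thioredoxin Y, whose 2 unigenes are under 300 bases and rest on few reads (34.7 to 85 per library), was called in no comparison as a name. Its unigene Cluster-14027.18720 was lower in G2-S4 vs G2-CK (log2 fold change −0.97 ± 0.24, adjusted p = 0.011), and with unlisted copies of all names at the limit the name was lower in G2-S4 vs G2-S3 (−0.67 ± 0.20, adjusted p = 0.027).

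Several atypical plastid thioredoxins fell in G2-S4. Thioredoxin-like 3-1, of a type with a changed active site in Arabidopsis, was at 187, 204 and 174 FPKM in G2-CK, 192, 177 and 185 in G2-S3 and 75.1, 81.2 and 80.8 in G2-S4. It was 2.19-fold lower in G2-S4 vs G2-CK (adjusted p = 1.1e-05), and all 6 of its unigenes were lower. Thioredoxin-like 2, named for atypical Arabidopsis thioredoxins that oxidize other chloroplast proteins, fell in steps, at 133, 132 and 145 FPKM in G2-CK, 117, 102 and 116 in G2-S3 and 75.1, 67.4 and 72.8 in G2-S4. Its log2 fold change was −0.30 ± 0.06 in G2-S3 (adjusted p = 0.017) and −0.86 ± 0.07 in G2-S4 (adjusted p = 1.8e-05); the G2-S3 call was lost without replicate 2 or 3 of G2-CK or replicate 2 of G2-S3 (adjusted p 0.060 to 0.068). CITRX, a thioredoxin that associates with the plastid RNA polymerase, was 1.60-fold lower in G2-S4 vs G2-CK (adjusted p = 0.00024), with 189, 212 and 193 FPKM in G2-CK against 121, 112 and 104.

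A pair of plastid names peaked in G2-S3. Thioredoxin-like 1-1, again an atypical type, was at 21.1, 18.1 and 26.4 FPKM in G2-CK, 46.1, 39.1 and 61.7 in G2-S3 and 26.2, 15.9 and 11.8 in G2-S4. Every G2-S3 library lay above the other 6. The level was 2.19-fold higher in G2-S3 than in G2-CK (adjusted p = 0.0089) and 2.81-fold lower in G2-S4 than in G2-S3 (adjusted p = 0.00088), while G2-S4 vs G2-CK was not called (log2 fold change −0.36 ± 0.21). CDSP32, a thioredoxin of the chloroplast stroma known in potato as a drought-induced stress protein, was at 91.4, 100.5 and 95.5 FPKM in G2-CK, 126, 124 and 117 in G2-S3 and 99.7, 89.7 and 91.7 in G2-S4. It rose 1.34-fold in G2-S3 (adjusted p = 0.0095) and was 1.26-fold lower in G2-S4 than in G2-S3 (adjusted p = 0.010). Both names kept these calls whichever library was left out.

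Thioredoxin-like 1-2, the related name of higher level, rose in both treatments. It was at 259, 278 and 284 FPKM in G2-CK, 350, 327 and 443 in G2-S3 and 403, 383 and 322 in G2-S4, all treated libraries above all controls. The rise was 1.46-fold in G2-S3 (adjusted p = 0.016), lost without replicate 2 or 3 of G2-CK (adjusted p = 0.061 and 0.062), and 1.42-fold in G2-S4 (adjusted p = 0.0057). AAED1, by contrast, was called in no comparison, at 202 ± 19.3 FPKM in G2-CK and 208 ± 16.9 in G2-S4 (SD, n = 3). Over the whole group of plastid thioredoxins, the comparison of G2-S4 with G2-CK left 3 of 18 names higher, where 30.8% of all names were, 9 lower, where 20.2% were, and 6 not called, with a median log2 fold change of −0.41 beside 0.09 over all names.

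Leaf mesophyll markers fell over the same comparison. Of 17 marker names tested, 12 were lower and 1 higher in G2-S4 vs G2-CK, where 20.2% and 30.8% of all names were, with a median log2 fold change of −0.81. In G2-S3 vs G2-CK 4 were lower and none higher, beside 5.63% and 10.6% of all names. The most abundant, Rubisco small chain A, averaged 6160 FPKM in G2-CK, 4325 in G2-S3 and 1325 in G2-S4 and was lower in both treatments. What part this has in the lower plastid thioredoxins and peroxiredoxins was not tested.

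The abundant peroxiredoxins of the chloroplast fell and one of the cytosol rose. Peroxiredoxin Q, which reduces peroxides at the thylakoids, was at 636, 662 and 611 FPKM in G2-CK, 535, 453 and 431 in G2-S3 and 252, 205 and 224 in G2-S4. The 3 groups did not overlap. G2-S4 was 2.55-fold below G2-CK (adjusted p = 2.8e-05) and 1.98-fold below G2-S3 (adjusted p = 0.00034), whereas G2-S3 vs G2-CK narrowly missed the threshold (log2 fold change −0.37 ± 0.11, adjusted p = 0.052). With unlisted copies of all names at the limit, G2-S3 was called lower (adjusted p = 0.0479, edgeR). The most abundant copy, Cluster-14027.152885, went from 304, 315 and 297 FPKM in G2-CK to 99.9, 72.4 and 88.0 in G2-S4, a log2 fold change of −1.68 ± 0.15, and the next, Cluster-14027.138860, had −1.06 ± 0.11.

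BAS1, the chloroplast 2-Cys peroxiredoxin that NTRC keeps reduced, fell in both treatments. It was at 489, 552 and 508 FPKM in G2-CK, 391, 355 and 429 in G2-S3 and 292, 274 and 267 in G2-S4, again without overlap. The fall was 1.26-fold in G2-S3 (adjusted p = 0.027) and 1.64-fold in G2-S4 (adjusted p = 0.00014). The G2-S3 call was lost when any control library or replicate 1 or 2 of G2-S3 was left out (adjusted p 0.050 to 0.10). Its unigenes Cluster-14027.160782 and Cluster-14027.158614 had log2 fold changes of −0.88 ± 0.10 and −0.83 ± 0.10 in G2-S4, and the latter was also the only peroxiredoxin unigene called in G2-S3 vs G2-CK, a call lost without replicate 2 or 3 of G2-CK, replicate 1 or 2 of G2-S3 or replicate 2 of G2-S4 (adjusted p 0.053 to 0.12).

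The type II peroxiredoxins did not move as one. Peroxiredoxin-2C, a cytosolic form, was at 113, 119 and 106 FPKM in G2-CK, 148, 161 and 113 in G2-S3 and 162, 192 and 205 in G2-S4. It was 1.80-fold higher in G2-S4 than in G2-CK (adjusted p = 0.0015), with all G2-S4 libraries above all others. Peroxiredoxin-2E-2, a plastid form, was at 38.2, 38.6 and 50.4 FPKM in G2-CK, 42.4, 33.6 and 41.9 in G2-S3 and 17.0, 14.0 and 15.2 in G2-S4, a 2.66-fold fall from G2-CK to G2-S4 (adjusted p = 2.6e-05). Its close namesake Peroxiredoxin-2E-1, brought in after its values were seen, was 1.66-fold higher in that comparison (adjusted p = 0.0072), at 43.7, 34.7 and 38.3 against 60.5, 50.5 and 75.0 FPKM. The mitochondrial Peroxiredoxin-2F, also added afterwards, was at 58.9 ± 3.93, 55.9 ± 1.79 and 55.5 ± 0.758 FPKM in the 3 groups (SD, n = 3) and was not called. Of the 7 peroxiredoxin names tested in G2-S4 vs G2-CK, 2 were higher, 3 lower and 2 not called, where 30.8% of all names were higher and 20.2% lower. Of 36 unigenes 3 were higher and 12 lower, where 14.2% and 13.8% of all unigenes were.

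**Figure D3:**
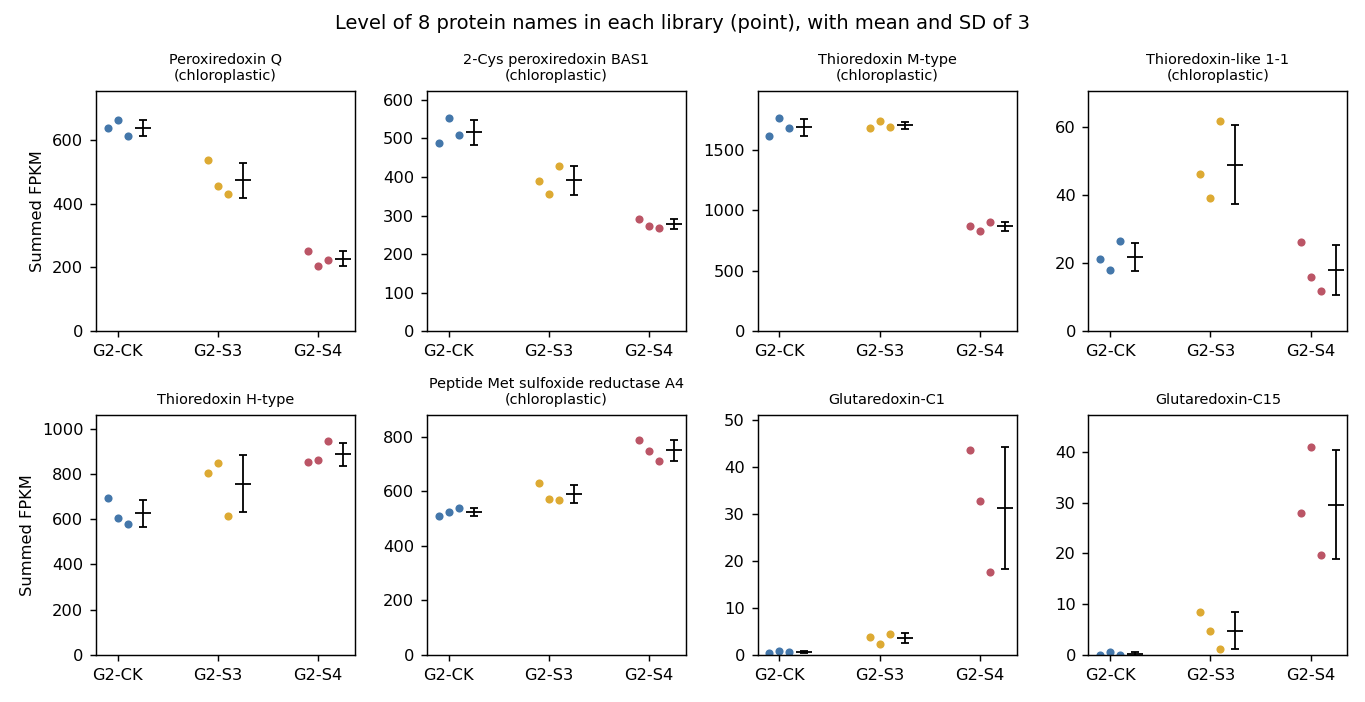
Summed FPKM (y axes, each from 0) of 8 protein names in each library, by group on the x axis; coloured points are libraries, black marks the mean and SD of 3. Peroxiredoxin Q is highest in G2-CK (636, 662 and 611 FPKM), Thioredoxin-like 1-1 peaks in G2-S3 (46.1, 39.1 and 61.7 FPKM) and Glutaredoxin-C1 and C15 are near 0 in G2-CK.

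Among methionine sulfoxide reductases A4 of the chloroplast, the most abundant, rose stepwise, at 510, 525 and 538 FPKM in G2-CK, 629, 573 and 570 in G2-S3 and 787, 749 and 712 in G2-S4, with no overlap between groups. It was 1.53-fold higher in G2-S4 vs G2-CK (adjusted p = 0.00020) and 1.24-fold higher in G2-S4 vs G2-S3 (adjusted p = 0.012). Its 1.23-fold rise in G2-S3 (adjusted p = 0.030) was lost when any control library or replicate 1 or 2 of G2-S3 was left out (adjusted p 0.059 to 0.12). The copies Cluster-14027.130153 and Cluster-14027.158513 had log2 fold changes of 0.68 ± 0.11 and 0.57 ± 0.11 in G2-S4.

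A5 was lower in level and rose as well, at 21.2, 21.1 and 21.7 FPKM in G2-CK, 30.4, 27.0 and 25.6 in G2-S3 and 32.9, 31.4 and 33.5 in G2-S4. The log2 fold change was 0.45 ± 0.09 in G2-S3 (adjusted p = 0.014, lost without replicate 2 of G2-CK at 0.060) and 0.77 ± 0.09 in G2-S4 (adjusted p = 0.00018). B5 rose 1.32-fold in G2-S4 (adjusted p = 0.0035), from 64.0, 67.35 and 72.0 to 78.9, 81.5 and 77.9 FPKM, and 1.28-fold in G2-S3 (adjusted p = 0.024), the latter lost without any of the control libraries or replicate 1 of G2-S3. A2-1 instead fell, at 259, 160 and 133 FPKM in G2-CK, 110, 141 and 179 in G2-S3 and 64.2, 69.6 and 105 in G2-S4. Its control libraries spread widely, the G2-S4 libraries lay below all controls, and the fall was 2.23-fold (adjusted p = 0.0085). Of all 6 names, 3 were higher, 2 lower and 1 not called in the same comparison, a split near that of all names (30.8% higher and 20.2% lower).

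Thioredoxins h, small proteins of the cytosol and other compartments, were higher in G2-S4 under 5 of 8 names, where 30.8% of all names were higher. Thioredoxin H-type, the second most abundant member, was at 694, 606 and 577 FPKM in G2-CK, 805, 849 and 613 in G2-S3 and 853, 862 and 946 in G2-S4. All G2-S4 libraries exceeded all others, and the third G2-S3 library sat among the controls. The rise was 1.51-fold in G2-S4 vs G2-CK (adjusted p = 0.0038) and was not called in G2-S3 (log2 fold change 0.37 ± 0.13, adjusted p = 0.076). Its unigenes Cluster-14027.158366 and Cluster-14027.162189 had log2 fold changes of 0.73 ± 0.21 and 0.49 ± 0.09 in G2-S4, the former being no longer called without replicate 2 or 3 of G2-CK or any one G2-S4 library (adjusted p 0.052 to 0.10).

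Thioredoxin H-type 2 and H2-1 shared another course, with a called rise in G2-S4 and lower means in G2-S3 that were not called. H-type 2 was at 378, 335 and 287 FPKM in G2-CK, 304, 270 and 210 in G2-S3 and 433, 476 and 427 in G2-S4. It was 1.79-fold higher in G2-S4 than in G2-S3 (adjusted p = 0.0037) and 1.47-fold higher than in G2-CK (adjusted p = 0.016), the latter lost without replicate 3 of G2-CK or replicate 2 of G2-S4. H2-1 was at 222, 210 and 165 FPKM in G2-CK, 187, 187 and 123 in G2-S3 and 306, 313 and 301 in G2-S4, 1.91-fold higher in G2-S4 than in G2-S3 (adjusted p = 0.0051) and 1.69-fold higher than in G2-CK (adjusted p = 0.0080). In both names the third G2-S3 library was the lowest of all 9.

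Thioredoxin H1 rose 1.60-fold in G2-S4 vs G2-CK (adjusted p = 0.0029), from 167, 160 and 153 to 236, 208 and 264 FPKM. Thioredoxin H4-2 was the h name that rose in G2-S3 and kept that call whichever library was left out. It was at 53.7, 62.0 and 50.3 FPKM in G2-CK, 64.0, 70.3 and 74.9 in G2-S3 and 71.6, 80.7 and 73.7 in G2-S4, a 1.41-fold rise in G2-S3 (adjusted p = 0.0052) and 1.53-fold in G2-S4 (adjusted p = 0.00021). Its unigene Cluster-14027.99357 had the largest G2-S3 increase of the better expressed members, from 3.22, 2.60 and 3.79 FPKM to 8.74, 8.75 and 6.85 (log2 fold change 1.40 ± 0.19, adjusted p = 0.0034). Cluster-14027.145665 of Thioredoxin-like 1-1 (1.06 ± 0.19) and Cluster-14027.99358, also of H4-2 (0.99 ± 0.18), came next, the former lost without replicate 1 or 2 of G2-CK and the latter without replicate 1 or 3.

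Thioredoxin H3 was the only h name lower in G2-S4 vs G2-CK, and H2-2 and H4-1, the latter outside the naming rule, were not called there. H3 was at 12.6, 10.7 and 8.78 FPKM in G2-CK, 6.05, 7.37 and 6.97 in G2-S3 and 5.96, 4.74 and 4.52 in G2-S4, 1.91-fold lower in G2-S4 vs G2-CK (adjusted p = 0.0014). The G2-S3 fall (adjusted p = 0.036) was lost without replicate 1 or 2 of G2-CK, replicate 1 or 2 of G2-S3 or replicate 2 of G2-S4 (adjusted p 0.054 to 0.13). H2-2 was called in no comparison by name, yet its unigene Cluster-14027.180054 was among the 3 largest falls from G2-S3 to G2-S4, from 40.4, 52.1 and 20.2 to 13.4, 12.3 and 15.5 FPKM (log2 fold change −1.40 ± 0.29, adjusted p = 0.0097, lost without replicate 2 of G2-S4 at 0.052).

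Glutaredoxins had the 3 largest fold changes of the member names in G2-S4 vs G2-CK. These names, C15, C1 and C14, had fewer than 10 reads in every control library. They passed the filter on low counts through salt-treated libraries, where they were high. Of their 18 names, all tested, 10 were higher and 3 lower in that comparison, beside 30.8% and 20.2% of all names, with a median log2 fold change of 0.34. In G2-S3 vs G2-CK 3 were higher and none lower, beside 10.6% and 5.63%. Without TMM factors 8 were higher and 4 lower in G2-S4 vs G2-CK, beside 2692 and 3207 of all 12124 names. Among the abundant names, Monothiol glutaredoxin-3, carried by the single unigene Cluster-14027.165609, was at 203, 194 and 170 FPKM in G2-CK, 158, 158 and 106 in G2-S3 and 258, 284 and 257 in G2-S4. G2-S3 lay below and G2-S4 above every control library, and G2-S4 was 1.98-fold higher than G2-S3 (adjusted p = 0.0022) and 1.54-fold higher than G2-CK (adjusted p = 0.011), whereas G2-S3 vs G2-CK was not called (adjusted p = 0.16). Glutaredoxin-C6 was called in no comparison, at 168 ± 13.8 FPKM in G2-CK and 188 ± 16.0 in G2-S4 (SD, n = 3). Monothiol glutaredoxin-S7 of the chloroplast was 1.24-fold lower in G2-S4 vs G2-CK (adjusted p = 0.011), at 152, 151 and 151 against 117, 104 and 120.5 FPKM. Monothiol glutaredoxin-S2, added after its values were seen, was 2.12-fold lower in that comparison (adjusted p = 0.0018, edgeR). It was at 119, 75.3 and 80.9 FPKM in G2-CK against 33.2, 40.7 and 45.4 in G2-S4.

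The steepest rises were of glutaredoxins hardly detected without salt. Glutaredoxin-C1 had 3, 8 and 6 listed reads in the G2-CK libraries, 31, 21 and 37 in G2-S3 and 373, 270 and 154 in G2-S4, which is 0.370, 0.880 and 0.690 FPKM, then 3.76, 2.36 and 4.45, then 43.5, 32.6 and 17.5. The groups did not overlap. Its log2 fold change was 2.46 ± 0.50 in G2-S3 (adjusted p = 0.014) and 5.71 ± 0.47 in G2-S4 (adjusted p = 2.7e-05) with unlisted copies counted as 0, and 1.78 ± 0.46 and 4.999 ± 0.396 with them set to the listing limit. It kept its calls whichever library was left out.

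Glutaredoxin-C15 was listed in 1 control library with 7 reads. It had 149, 98.1 and 13.9 reads in G2-S3 and 426, 617 and 365 in G2-S4, or 8.37, 4.74 and 1.16 FPKM and 28.01, 40.98 and 19.72 FPKM, the third G2-S3 library being the lowest of the treated ones. The log2 fold change was 7.77 ± 1.02 in G2-S4 vs G2-CK (adjusted p = 0.00028) with unlisted copies as 0 and 4.97 ± 0.57 at the listing limit, and 5.25 ± 1.09 and 2.55 ± 0.59 in G2-S3. The G2-S3 call (adjusted p = 0.015) was lost without replicate 3 of G2-CK (adjusted p = 0.056). Monothiol glutaredoxin-S5 rose 3.22-fold in G2-S3 (adjusted p = 0.0029) and 4.92-fold in G2-S4 (adjusted p = 6.5e-05) with unlisted copies as 0. Its levels went from 3.17, 3.02 and 3.41 FPKM to 6.83, 10.1 and 5.92 and 11.8, 11.1 and 9.71. The log2 fold changes were 1.69 and 2.30, and smaller at the listing limit, 1.26 ± 0.21 and 1.88 ± 0.21. It kept both calls whichever library was left out.

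A further pair, picked after its values were seen, behaved alike in G2-S4. Putative glutaredoxin-C14 had 3, 5 and 2.1 listed reads in G2-CK, 13, 6 and 13 in G2-S3 and 179, 99 and 39 in G2-S4. Its log2 fold change in G2-S4 vs G2-CK was 5.13 ± 0.69, and 3.64 ± 0.55 with unlisted copies at the limit. Only in G2-S4 did every library reach the filter's minimum count of 10. C14 was thus tested through the group where it was high, and no p is given for it. Glutaredoxin-C4 of the chloroplast was at 10.2, 7.51 and 4.59 FPKM in G2-CK, 6.93, 6.27 and 9.01 in G2-S3 and 24.4, 25.5 and 27.3 in G2-S4, a 3.79-fold rise (adjusted p = 0.00038) that was absent from the G2-S3 calls. C1, C14, C15 and S5 stayed at low levels, with at most 31.2 FPKM as the mean of G2-S4, where all members summed to 8637.

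Among the other thioredoxin-like proteins, 10 names were tested, of which 3 were higher and 2 lower in G2-S4 vs G2-CK, close to the 30.8% and 20.2% of all names. YLS8, the plant homolog of a small spliceosome protein, was at 266, 207 and 248 FPKM in G2-CK, 194, 223 and 241 in G2-S3 and 221, 218 and 207 in G2-S4, with log2 fold changes of 0.00 ± 0.07 in all 3 comparisons. CXXS1, an atypical thioredoxin with a single cysteine in its active site, was at 103, 136 and 139 FPKM in G2-CK, 102, 87.9 and 109 in G2-S3 and 153, 216 and 177 in G2-S4. It was 1.89-fold higher in G2-S4 than in G2-S3 (adjusted p = 0.0018) and 1.57-fold higher than in G2-CK (adjusted p = 0.0051), and its unigenes Cluster-14027.211307 and Cluster-14027.158838 both had a log2 fold change of 1.03 in G2-S4 vs G2-S3. PLP3B, a phosducin-like protein linked in Arabidopsis to tubulin folding, rose 1.21-fold in G2-S3 (adjusted p = 0.029) and 1.19-fold in G2-S4 (adjusted p = 0.015). Its G2-S3 call was lost without any of the control libraries or replicate 1 or 2 of G2-S3, its G2-S4 call without replicate 1 of G2-CK or replicate 2 of G2-S4, and both without TMM factors.

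**Figure D4:**
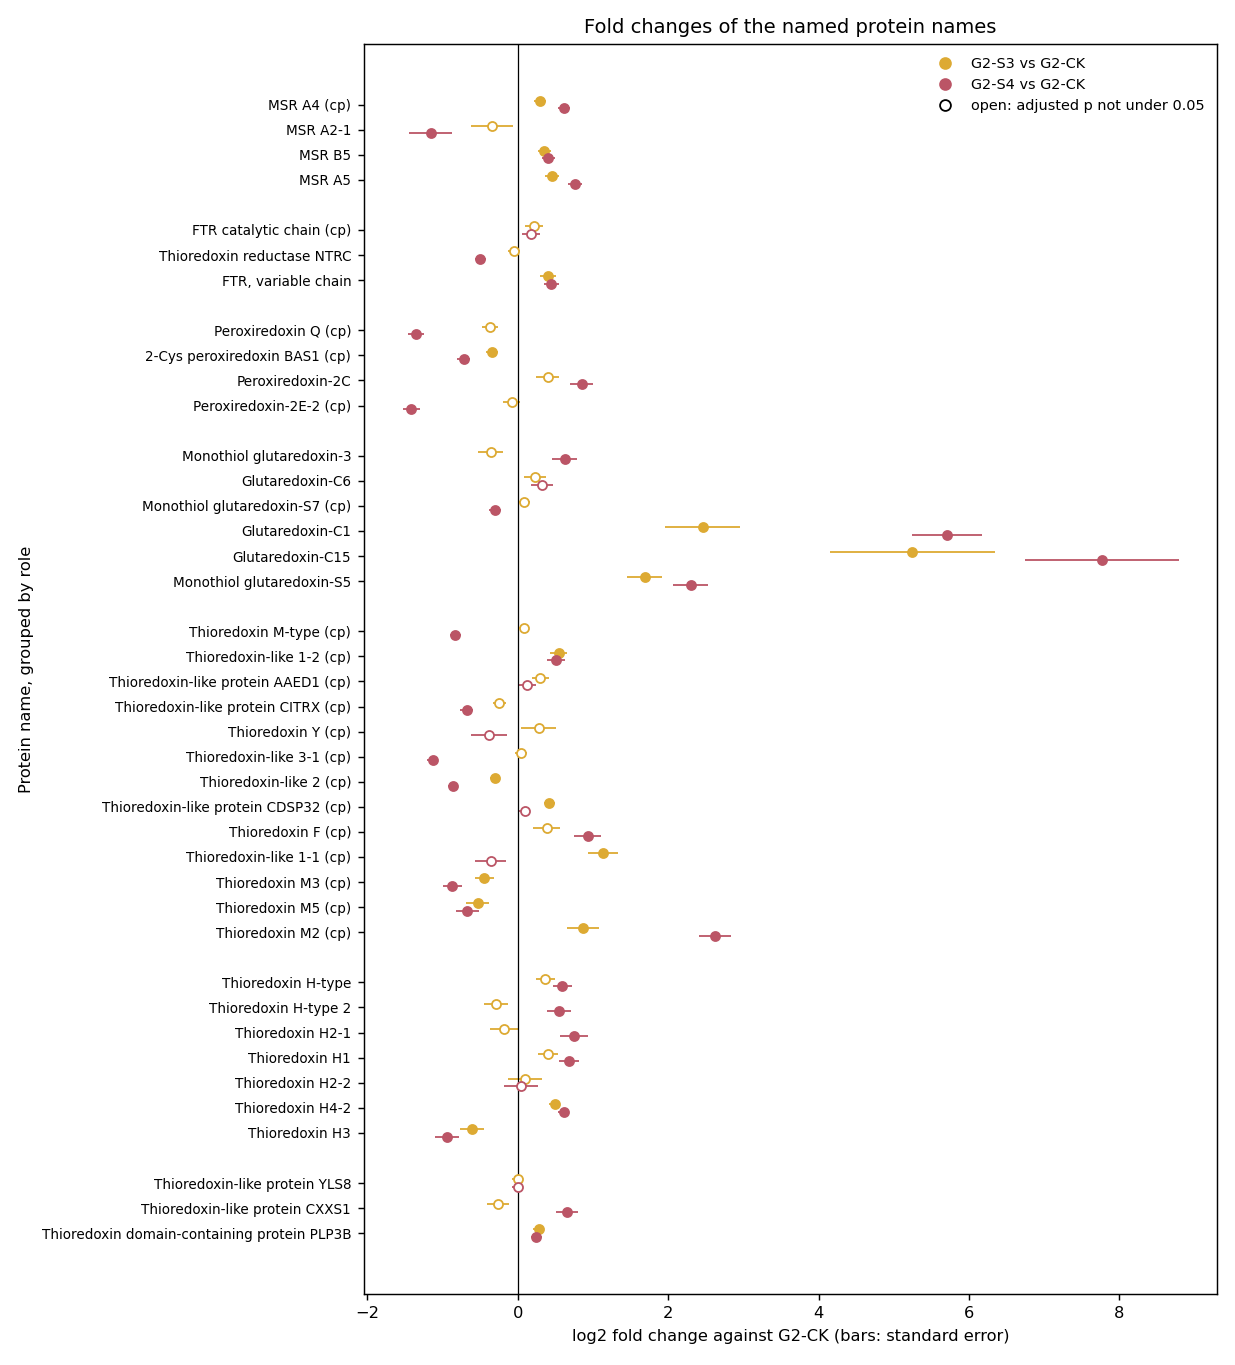
log2 fold change against G2-CK (x axis) of the 40 protein names selected by the naming rule (y axis, grouped by role; MSR is methionine sulfoxide reductase, FTR ferredoxin-thioredoxin reductase, cp chloroplastic), for G2-S3 (yellow) and G2-S4 (red); bars are standard errors and open symbols were not called. The named chloroplast peroxiredoxins lie left of 0 (Peroxiredoxin Q −1.35 in G2-S4) and thioredoxins h mostly right of it (H-type 0.60), while Glutaredoxin-C1 and C15 reach 5.71 and 7.77 with unlisted copies as 0.

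Copies of one name did not always share a direction. In all, 68 names had at least 2 tested unigenes. In G2-S4 vs G2-CK, 31 names held only higher calls and 22 only lower calls. These counts include names with a single call or a single tested unigene. They were not made over all protein names, so whether the members differ from other names here is not known. A further 5 held both higher and lower copies: methionine sulfoxide reductase A2-1, AAED1, Thioredoxin H1, Thioredoxin H4-2 and Monothiol glutaredoxin-S12. The last is outside the naming rule and given for the count. For H1, the copy Cluster-14027.159316 rose from 62.1 to 129 FPKM in the group means (log2 fold change 1.18 ± 0.16) while the weak copy Cluster-14027.154984 went from 1.33 to 0.243 FPKM (−1.78 ± 0.38). For AAED1, 4 copies were higher and 2 lower, beside a name that was not called. In G2-S3 vs G2-CK no name held calls in both directions.

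Calls in G2-S3 vs G2-CK rested on single libraries far more than those in G2-S4 vs G2-CK. Of the 18 names called, 5 (Thioredoxin-like 1-1, CDSP32, Thioredoxin H4-2, Glutaredoxin-C1 and Monothiol glutaredoxin-S5) stayed called whichever of the 9 libraries was left out. The number of names called was 10, 6 and 8 without replicates 1, 2 and 3 of G2-CK and 9 without replicate 1 or replicate 2 of G2-S3, but 25 without replicate 3 of G2-S3. Calls over all names tested moved alike, from 1969 to 1403, 660 and 926 without the control libraries in turn. They were 883 and 908 without replicates 1 and 2 of G2-S3, and 3071 without replicate 3. The number of unigenes called went from 29 to 10, 5 and 7 without the control libraries in turn, to 8 and 9 without replicates 1 and 2 of G2-S3, to 17 without replicate 2 of G2-S4, and to 36 without replicate 3 of G2-S3. Over all unigenes tested, 7307 calls became 3964, 2269 and 3049 without the control libraries and 11221 without replicate 3 of G2-S3. In G2-S4 vs G2-CK, 42 of 49 names and 92 of 143 unigenes held their call throughout, and in G2-S4 vs G2-S3 24 of 36 names and 53 of 78 unigenes. Calls that held throughout were not counted over all names or unigenes, so these shares are not a trait of the members.

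Partners of these proteins were read from 3 lists. The first holds electron donors and regenerating enzymes: ferredoxins, ferredoxin-NADP reductases, glutathione reductases, sulfiredoxin, which restores overoxidized 2-Cys peroxiredoxins, and nucleoredoxins, which carry thioredoxin-like domains. Of its 17 names, 12 were higher and 2 lower in G2-S4 vs G2-CK, beside 30.8% and 20.2% of all names, and 3 higher and none lower in G2-S3 vs G2-CK, beside 10.6% and 5.63%. Its summed FPKM did not rise in G2-S4, at 3308 ± 213 in G2-CK, 3498 ± 160 in G2-S3 and 3077 ± 54.0 in G2-S4 (SD, n = 3). The G2-CK and G2-S4 libraries overlapped. The 2 lower names were both ferredoxin-NADP reductases of the chloroplast, while the root and embryo isozymes were higher; the lower ones included the leaf isozyme at 1791, 2108 and 1994 FPKM in G2-CK against 1106, 1085 and 960 in G2-S4 (log2 fold change −0.69 ± 0.09). The largest rise was of Probable nucleoredoxin 1-2, at 34.1, 40.2 and 40.0 FPKM in G2-CK, 92.1, 99.8 and 58.5 in G2-S3 and 113, 135 and 160 in G2-S4 (log2 fold changes 1.36 ± 0.21 and 2.16 ± 0.22). Cytosolic glutathione reductase, which supplies the glutathione that glutaredoxins use, rose in G2-S4 (1.41 ± 0.21), as did sulfiredoxin (0.74 ± 0.13).

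The second list holds chloroplast enzymes known as thioredoxin targets. Of its 13 names tested, 2 were higher and 8 lower in G2-S4 vs G2-CK, where 30.8% and 20.2% of all names were, with a median log2 fold change of −0.89. In G2-S3 vs G2-CK 1 was higher and 1 lower, beside 10.6% and 5.63% of all names. Sedoheptulose-1,7-bisphosphatase, a Calvin cycle enzyme, fell in both treatments, by 0.45 ± 0.09 and 1.35 ± 0.10 on the log2 scale. The 2 higher names were forms of CP12, the small protein that binds 2 Calvin cycle enzymes in the dark, with CP12-2 at 466, 520 and 497 FPKM in G2-CK, 847, 739 and 420 in G2-S3 and 1295, 1134 and 903 in G2-S4 (log2 fold change 1.29 ± 0.25 in G2-S4).

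The third list holds other enzymes that remove peroxide or superoxide, such as catalases, ascorbate peroxidases and superoxide dismutases. Of its 33 names tested, 19 were higher and 8 lower in G2-S4 vs G2-CK, beside 30.8% and 20.2% of all names, and 7 higher and 3 lower in G2-S3 vs G2-CK, beside 10.6% and 5.63%. Its summed FPKM was 5777 ± 46.0 in G2-CK, 6949 ± 306 in G2-S3 and 8055 ± 144 in G2-S4 (SD, n = 3), with no overlap between groups, beside the peroxiredoxins' 1424 ± 55.5, 1166 ± 58.9 and 832.6 ± 31.1. L-ascorbate peroxidase 1 of the cytosol was at 166.5, 137.8 and 122.5 FPKM in G2-CK, 294.5, 303.7 and 204.1 in G2-S3 and 424, 427 and 498 in G2-S4, a 2.07-fold and a 3.74-fold rise.

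Markers of a senescing leaf did not move as one. Of 5 names, 4 were higher and 1 lower in G2-S4 vs G2-CK, beside 30.8% and 20.2% of all names. In G2-S3 vs G2-CK 1 was lower, where 5.63% of all names were. The lower one, the cysteine protease SAG39, held most of the list's summed FPKM, which lay between 2468 and 2976 in G2-CK, between 1140 and 1458 in G2-S3 and between 868 and 1260 in G2-S4, while STAY-GREEN, which takes part in chlorophyll breakdown, had a log2 fold change of 2.06 ± 0.31 in G2-S4. Their part in the changes of the redox proteins was not tested.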

How the data were processed

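Leaf RNA was read as 9 (3 groups of 3) poly-A, unstranded paired-end libraries. The authors assembled the reads de novo with Trinity, clustered transcripts with Corset, aligned reads with bowtie2 and deposited, for each library, estimated counts from RSEM and FPKM per unigene, listing values above 0.3 FPKM only; base calling used CASAVA 1.8 per the labels. Unstranded reads cannot separate a gene from an antisense partner. The deposited FPKM use an effective length, from which the reads worth 0.3 FPKM were derived for each unigene (median 2.12 reads).

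Counts were rounded and tested with edgeR 4.0.16 in R 4.3.3 (TMM, filterByExpr with a minimum count of 10, glmQLFit and glmQLFTest, 1 group-means fit over all 9 libraries of 23.0 to 25.7 M fragments, Benjamini-Hochberg over 127353 unigenes or 12124 protein names). Unlisted values entered the unigene fit at the limit and the sums per protein name as 0. Errors of fold changes are standard errors, and p-values measure the spread between these samples of 1 clone. The scripts were tested on simulated data.

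The members and lists were chosen with earlier results of these data known. Named were the 25 most abundant protein names, the 2 most abundant of each role group, the 3 largest rises and falls per comparison among called unigenes and names with a mean log2 CPM of at least 3 (for unigenes, without overlap between groups), every name called in G2-S3 vs G2-CK, and the 2 most abundant unigenes of the 5 most abundant names. Alternatives tried were RLE size factors, no TMM factors, DESeq2 1.42.0, no filter, other values for unlisted unigenes, pairs of groups alone, a fold limit, a replicate block and leaving out each library; leaving out TMM factors and taking the limit from the full length were chosen after seeing the data. No sequences are given.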

Additional observations from a re-analysis of the deposited data

Results flagged for a closer look

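The 8 redox unigenes left out for a human nucleotide description were listed in no G2-CK or G2-S3 library, but summed to 15.9, 6.24 and 6.21 FPKM in the G2-S4 libraries, a mean of 9.45. Unigenes with such a description took 0.138%, 0.0814% and 0.0445% of the listed reads of the G2-S4 libraries and at most 0.000208% of those of any other library, which is a signal outside the members and above the level in the controls.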

How the results depend on the processing

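The number of members called in G2-S3 vs G2-CK was the value that depended most on the processing. The 29 unigenes became 8 with no filter on low counts, 14 with unlisted values as 0 and 19 with only those 2 groups fitted. They became 13 with an absolute log2 fold change of at least 1 as well, and 5 to 36 when 1 library was left out. Over all unigenes, 7307 calls became 2952, 3596, 5362 and 5029 in the first 4 of these settings, and 2269 to 11221 in the last. The 18 protein names became 4 with that fold limit and 6 to 25 when 1 library was left out, where 1969 of all names became 548 and 660 to 3071. The fold limit took G2-S4 vs G2-CK from 143 to 62 unigenes and 49 to 12 names, where 35705 and 6183 overall became 22357 and 1987. It took G2-S4 vs G2-S3 from 78 to 38 unigenes and 36 to 8 names, where 17989 and 4074 overall became 10798 and 1040. With 1 library left out, 108 to 152 unigenes and 45 to 50 names were called in G2-S4 vs G2-CK, beside 27473 to 38782 and 5183 to 6627 overall. In G2-S4 vs G2-S3, 62 to 78 unigenes and 26 to 34 names were called, beside 11462 to 16975 and 2947 to 4012 overall. No named member changed direction past the threshold under any alternative run. Summed FPKM of the role groups with unlisted values at 0.3 moved by less than the SD between replicates in every group.

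Groups share replicate numbers, but same-numbered libraries did not deviate together (correlations of −0.109 to 0.0398 over unigenes), so the numbers were not taken as pairs. A fit with the replicate number as a block called 17 unigenes and 10 names in G2-S3 vs G2-CK, beside 4623 unigenes and 1156 names overall. Depth limits the low glutaredoxins most, since unlisted copies may hold reads up to the limit.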
